A study of Drosophila melanogaster with 2 samples.

Results

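The 58 nuclei described here were selected on Y-linked transcripts in 1 of the 2 deposited count matrices. A nucleus was taken when it held at least 1 unique molecular identifier (UMI, the count of 1 captured transcript) of 3 or more of the 7 genes *kl-2*, *kl-3*, *kl-5*, *ORY*, *CCY*, *PRY* and *WDY*, and when these genes took at least 3 times their pooled share of that matrix. The rule found 58 of 5978 nuclei (0.970%) in the smaller matrix, among 13868 nuclei in both matrices. They are called Y-gene nuclei, and the 5920 remaining nuclei of the smaller matrix are the other nuclei. The label given to the set was spermatocyte-like, and genes outside the Y chromosome, which the rule did not use, were examined against it.

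The study profiled single nuclei from nephrocytes, the filtering cells of the fly excretory system, dissected from adult males and females aged 5 to 7 d, with 1 male and 1 female sample. All flies carried w1118; Dot-Gal4, UAS-GFP.nls, in which the *Dot* driver puts a nuclear GFP into nephrocytes, and each tube pooled tissue of many flies. The smaller matrix carries the word male in its deposited name and the larger matrix the word female, but the records connect neither table to a sample, so no sex was assigned. All Y-gene nuclei come from 1 matrix, which is taken here as 1 library. No difference therefore has a replicate check, no test was run, and every interval in the text is a 95% interval that covers counting error only.

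Male germ cells of *Drosophila* grow for days as primary spermatocytes before meiosis. In that stage they transcribe the giant Y-linked fertility genes, several of which encode dynein heavy chains of the sperm tail. They also switch on a large testis program through the testis meiotic arrest complex (tMAC) and testis-specific TBP-associated factors (tTAFs), and many of the transcripts are stored for use in spermatids after meiosis.

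The members differed widely in the quantity that chose them. The 7 genes took 9.80 UMIs per 10000 in the member with the lowest share, 47.6 at the median and 1250 in the highest, against 3.26 in the pooled matrix. *kl-3*, which encodes an axonemal dynein heavy chain, had a UMI in all 58 members, *WDY* in 55, *ORY* in 46 and *CCY* in 19. The lowest 3 members lay at 3.005, 3.27 and 3.48 times the pooled share, and the nuclei just outside with 3 or more of the genes lay at 2.999, 2.81 and 2.49 times. The member nearest the limit held 8 Y-linked UMIs among 8166, and the nearest nucleus outside held 5 among 5113. A further 68 nuclei had enough share but only 2 of the genes, 1 of them with 105 Y-linked UMIs among 896. The rule needs several transcripts in 1 nucleus, and its part in the depth of the members was not tested. The Y-gene nuclei had a median of 6677.5 UMIs (561 to 43197) against 1466.5 (500 to 58734) in the other nuclei, and 55 of 58 lay above the median of the matrix. Of 14 barcodes that occur in both matrices, 0 belonged to a member. *Ppr-Y*, a Y-linked gene that the rule did not use, was at 524 counts per 1000000 UMIs (CPM) in Y-gene nuclei and 47.4 CPM in other nuclei, and 48 of 58 members held it.

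Transcripts of the spermatocyte regulators were enriched in the Y-gene nuclei. Sums over nuclei do not by themselves separate more nuclei with a transcript from more transcript per nucleus. The 9 tMAC genes summed to 138 CPM in Y-gene nuclei against 23.6 CPM in other nuclei, a ratio of 5.84 (4.61 to 7.34). The 5 tTAF genes stood at 88.3 CPM against 4.87 CPM (18.2-fold, 12.8 to 25.6), and 6 testis bromodomain and chromatin genes at 133 CPM against 4.87 CPM (27.4-fold, 20.1 to 37.3). A UMI of the tMAC list was found in 34 of 58 Y-gene nuclei and in 346 of 5920 other nuclei. For the tTAF list these counts were 24 and 72, and for the chromatin list 34 and 72. The shares were not matched for depth. The larger matrix as a whole held 29.6 CPM of the tMAC list, 3.51 CPM of the tTAF list and 1.204 CPM of the chromatin list. Counts of single regulators were small, and the 3 sums rest on 92, 59 and 89 UMIs in the 58 nuclei. Y-gene nuclei held 3.68% of all UMIs of the smaller matrix, so equal UMIs in both groups mean a higher CPM in Y-gene nuclei.

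Among single regulators, *aly*, the tMAC subunit whose loss arrests spermatocytes, had 12 UMIs in 12 of 58 Y-gene nuclei and 4 UMIs in 5920 other nuclei, a CPM ratio of 78.4 (23.8 to 334). *vis*, a homeodomain subunit, had 11 UMIs against 8, *wuc* 12 against 13 and *tomb* 8 against 9. The tTAF genes *sa* and *can*, testis forms of general TFIID subunits, had 25 UMIs against 16 (40.9-fold, 21.0 to 81.9) and 15 against 7 (56.0-fold, 21.5 to 162). *nht* had 4 UMIs against 10. *mia*, another tTAF gene, had 2 UMIs against 34 (1.54-fold, with an interval that held 1), and *comr*, a tMAC gene, had 0 UMIs against 2. The bromodomain genes *tbrd-1* and *tbrd-2*, partners of the tTAFs, had 28 UMIs against 40 (18.3-fold) and 27 against 16 (44.1-fold). *kmg*, a zinc-finger repressor that keeps somatic genes off in spermatocytes, had 11 UMIs in each group, which is a higher CPM in Y-gene nuclei.

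A gene was called higher where its CPM in Y-gene nuclei was at least 3 times that in other nuclei with a lower limit above 1, and lower where it was at most 1/3 with an upper limit below 1. Only genes with at least 20 UMIs in all and at least 5 expected in the members were considered. Of 6414 such genes outside the Y, 246 were higher (3.84%) and 54 lower (0.842%). The median log2 ratio over them was 0.02. Summed counts give deeper members more weight in these calls. Members at 3 to under 10 times the pooled Y share had a median of 12225.5 UMIs. Those at 30 or more times had a median of 3519. Most regulators lie under the expected count of 5. Of the tMAC genes only *achi*, the near-identical neighbor of *vis*, entered the set, and it was called higher at 25.5 CPM against 7.67 CPM (3.32-fold, 1.88 to 5.51). The call was lost when the rule asked for 2 or 4 of the 7 genes or for 2 or 5 times the pooled share, and when 13 members that also met an accessory gland, neuronal, oenocyte or muscle rule were left out. Reads of the pair *achi* and *vis* can be split between the copies, so their values are uncertain.

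**Figure D1:**
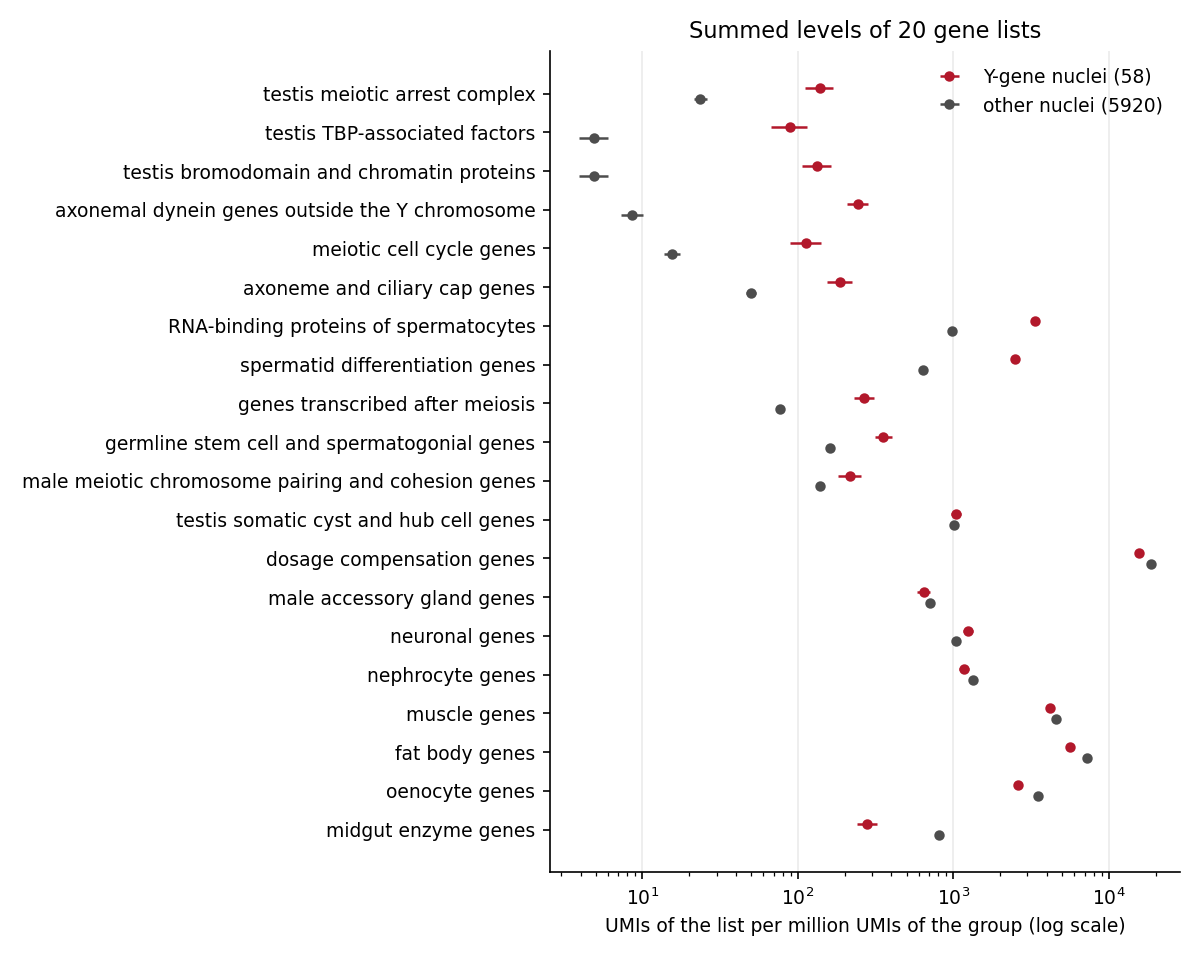
Summed level of 20 gene lists in the 58 Y-gene nuclei (red) and the 5920 other nuclei (grey) of the smaller matrix, as CPM on a log axis, with exact Poisson 95% intervals (counting error only). Testis regulator, dynein, meiotic and spermatid lists lie to the right in Y-gene nuclei, and the somatic lists other than midgut enzymes (0.344-fold) lie near each other.

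Axonemal motor genes outside the Y had some of the highest ratios of all genes. The 6 dynein genes with a UMI summed to 243 CPM in Y-gene nuclei against 8.59 CPM in other nuclei (28.2-fold, 22.5 to 35.5). *Dhc98D*, a dynein heavy chain, was called higher at 142 CPM against 2.52 CPM (56.5-fold, 39.1 to 82.7), and 29 of 58 members held it. *Dhc36C* stood at 64.4 CPM against 1.78 CPM and *Dic61B*, a testis dynein intermediate chain, at 19.5 CPM against 0.515 CPM. *Dhc93AB* (1 UMI against 27) and *Dhc62B* (4 against 28) had ratios of 0.969 and 3.74 with intervals that held 1. The ciliary transition zone genes *B9d1*, *Cep290* and *Cby* had ratios of 15.0, 34.0 and 21.2 on 23, 13 and 13 UMIs in Y-gene nuclei. The centriole genes *Cep135* and *ana1* had ratios of 1.78 and 1.90 and were not called.

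Meiotic genes gave a mixed picture. The 8 meiotic cell cycle genes summed to 112 CPM in Y-gene nuclei against 15.5 CPM in other nuclei (7.24-fold, 5.53 to 9.38). *CycB* had 13 UMIs against 28 (12.1-fold), *polo* 13 against 13 (26.1-fold) and *twe*, the meiotic Cdc25 phosphatase, 8 against 19 (11.0-fold). *stg*, the mitotic Cdc25, had 3 UMIs against 88 (0.891-fold, 0.180 to 2.69). The 8 genes for pairing and cohesion of male meiotic chromosomes summed to 216 CPM against 138 CPM (1.56-fold, 1.31 to 1.84). *mod(mdg4)* held most of this sum in Y-gene nuclei. Of the 8 genes, 4 had a lower limit above 1 and 0 had an upper limit below 1. *ord* had 15 UMIs against 12 (32.7-fold, 14.3 to 76.5). *tef* and *sunn* had 0 UMIs in Y-gene nuclei, without an upper limit below 1.

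Spermatid differentiation genes made up a larger share of the transcripts in Y-gene nuclei. They summed to 2483 CPM in Y-gene nuclei against 639 CPM in other nuclei (3.89-fold, 3.69 to 4.09), and 18 of the 24 considered were called higher and 0 lower, against 3.84% of all genes. *betaTub85D*, the testis tubulin, stood at 111 CPM against 11.5 CPM (9.68-fold, 7.31 to 12.7). *ocn*, a testis gene, was at 246 CPM against 53.1 CPM and *loopin-1*, a sperm aminopeptidase gene, at 91.3 CPM against 16.4 CPM. The protamine-like genes *ProtA* and *ProtB*, which pack sperm DNA, were at 40.4 CPM against 6.99 CPM and 55.4 CPM against 7.62 CPM. The sperm leucyl aminopeptidase genes *S-Lap1*, *S-Lap2*, *S-Lap3*, *S-Lap4*, *S-Lap7* and *S-Lap8* were all called higher, with ratios from 4.81 to 8.56. The 4 *Mst84D* genes had ratios from 2.27 to 2.95 and were not called. *S-Lap*, *Mst84D* and protamine genes are families of similar copies, so the split among copies is uncertain. Spermatid transcripts were also widespread outside the set. One was found in 57 of 58 Y-gene nuclei and in 50.9% of the other nuclei, shares that were not matched for depth. The larger matrix held only 64.4 CPM of the list. The 401 nuclei chosen by the same form of rule on accessory gland genes held 1935 CPM.

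*fzo*, the mitofusin of spermatids, stood at 83.9 CPM in Y-gene nuclei and 83.1 CPM in other nuclei (1.01-fold, 0.758 to 1.32). It overlaps the broadly expressed gene *cnc* on the same strand, and reads of the pair could not be told apart. *bol*, a translation regulator of meiotic entry, stood at 597 CPM against 348 CPM (1.72-fold, 1.55 to 1.90) and was not called. Of 11 genes transcribed after meiosis that had a UMI, 4 could be considered and 2 were called higher, against 3.84% of all genes. They were *soti* (8.31-fold, 6.12 to 11.1) and *w-cup* (4.11-fold, 2.88 to 5.73).

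The 9 genes of germline stem cells and spermatogonia summed to 355 CPM in Y-gene nuclei against 161 CPM in other nuclei (2.21-fold, 1.92 to 2.52), and 5 of them had a lower limit above 1. *AGO3*, a Piwi-family gene, held most of this sum, at 311 CPM against 152 CPM (2.04-fold, 1.77 to 2.35), and was not called. It stood at 359 CPM in the nuclei of the accessory gland rule. The other genes of the list had few counts. *bam* had 4 UMIs in Y-gene nuclei and 7 in other nuclei, *bgcn* 6 and 10, *vas* 3 and 15, and *nanos* 0 and 2. Y-gene nuclei held 3.68% of all UMIs of the matrix. The 3 *vas* UMIs came from 1 nucleus. In the list of somatic cyst and hub genes, *tj*, a marker of early cyst cells, had 0 UMIs in Y-gene nuclei against 13. *upd1*, the JAK-STAT ligand made by the testis hub, had 16 UMIs in 11 of 58 nuclei against 7 UMIs (59.8-fold, 23.3 to 172). *eya*, a cyst cell gene, had 10 UMIs against 36 (7.26-fold, 3.21 to 14.9). The summed list stood at 1044 CPM against 1008 CPM (1.04-fold, 0.958 to 1.12). *Fas3* and *zfh1* held most of its 697 UMIs in Y-gene nuclei, so the sum says little about the other genes of the list. *Fas3* stood at 1138 CPM in the larger matrix as a whole.

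The 20 genes with the largest lower limit of the ratio include noncoding RNAs, uncharacterized genes and known coding genes. They were picked for this contrast, so their values are a description. *asRNA:CR44370*, an uncharacterized antisense RNA on arm 2R, had the largest lower limit, at 3011 CPM (2881 to 3146) in Y-gene nuclei and 34.2 CPM in other nuclei, a ratio of 87.9 (80.2 to 96.5). It had 0 UMIs in the lowest member, 33.1 per 10000 at the median and 483 in the highest, while the other nuclei had a median of 0 and a highest value of 129. The groups overlapped, since 8 of 58 members held none. At 5 or more UMIs, 66 nuclei of the matrix were found, of which 43 were members (65.2%) and 23 others, and 19 of these 23 held a UMI of the 7 Y genes. Such a UMI was held by 1252 of the 5920 other nuclei (21.1%), a share that was not matched for depth. The gene overlaps *Fs* on the opposite strand, and the strand used in counting is not given in the sources used here. *Fs*, a follistatin gene, had 9 UMIs in Y-gene nuclei and 156 in other nuclei.

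Because Y-gene nuclei were deep, the share of nuclei with *asRNA:CR44370* was also read at a fixed depth. With every nucleus thinned to 500 UMIs, which left out 0 nuclei, it was seen in 67.2% of Y-gene nuclei (53.7 to 79.0), against 0.828% of other nuclei and 0.588% of 340 nuclei chosen by the same form of rule on oenocyte genes. Before thinning the shares in these groups were 86.2%, 3.09% and 3.24%, at median depths of 6677.5, 1466.5 and 1881.5 UMIs. The larger matrix held 6 UMIs of it in 7890 nuclei. At 500 UMIs *Dhc98D* was seen in 12.1%, 0.152% and 0% of the same groups and *betaTub85D* in 10.3%, 0.726% and 0.294%.

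*lncRNA:CR46007* (124 CPM in Y-gene nuclei against 0.916 CPM in other nuclei, 136-fold) overlaps *side-VI*, a sidestep-family surface protein gene, on the opposite strand. *side-VI* itself was at 565 CPM against 14.3 CPM (39.6-fold), and the overlapping reads of the pair cannot be told apart. *SteXh:CG42398*, of the multicopy *Stellate* family, was at 163 CPM against 2.06 CPM. It lies on an unplaced scaffold and its copies may share reads. *BigH1*, the linker histone of germ cells and early embryos, was at 67.4 CPM against 1.15 CPM (58.8-fold, 34.0 to 105) in 23 of 58 members. *Dnah3*, a dynein heavy chain outside the lists, was at 95.8 CPM against 1.60 CPM (59.8-fold). *Osi6*, of the Osiris family, was at 73.4 CPM against 0.744 CPM, and *oc*, a homeobox gene, at 50.9 CPM against 0.744 CPM. The 9 genes of the list not named in the text, among them *CG31068*, *CheA86a* and *lncRNA:CR43803*, had ratios from 50.3 to 91.5. Noncoding RNAs made up 10 of the 246 higher genes (4.07%) and 170 of the 6414 considered (2.65%).

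**Figure D2:**
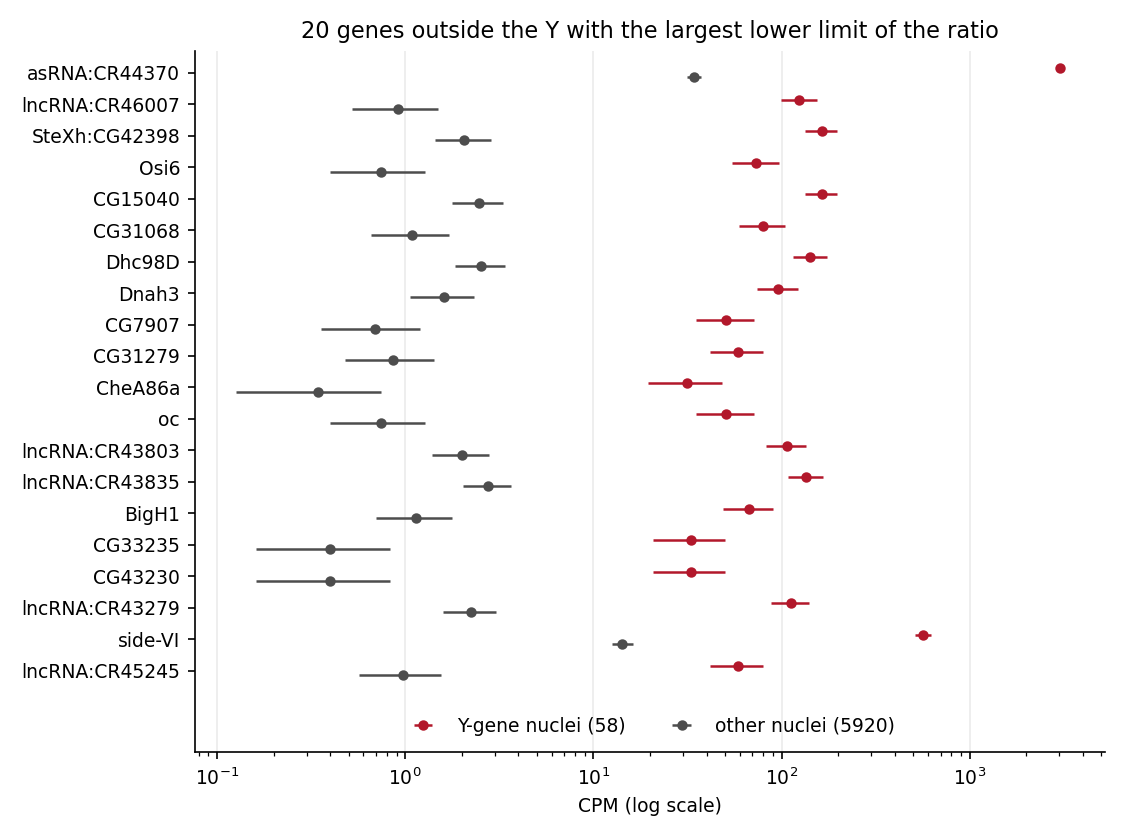
CPM of the 20 genes outside the Y with the largest lower limit of the ratio, in the 58 Y-gene nuclei (red) and the 5920 other nuclei (grey), on a log axis with exact Poisson 95% intervals (counting error only). *asRNA:CR44370* reached 3011 CPM in Y-gene nuclei, and the next highest, *side-VI*, 565 CPM.

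By level, *Pzl*, a Piezo-like mechanosensitive channel gene, was the highest of the called genes. Its UMIs per 10000 ran from 1.22 through a median of 16.0 to 635 over the 58 members, all of which held it, against a median of 0 and a highest value of 189 in the other nuclei. The pooled level was 3950 CPM in Y-gene nuclei against 217 CPM (18.2-fold, 17.3 to 19.2). *Myo81F*, its neighbor on 3R and a myosin gene in heterochromatin, was at 2364 CPM against 474 CPM (4.99-fold). It stood at 2311 CPM in 76 nuclei chosen by the same form of rule on neuronal genes, so this level is found outside the set as well. *heph*, the polypyrimidine tract-binding protein that spermatid individualization needs, was at 2692 CPM against 631 CPM (4.27-fold, 4.06 to 4.49) and is also widely expressed in the soma. *lncRNA:CR43264* followed at 804 CPM against 27.6 CPM. *fest*, a gene of male meiosis, was at 241 CPM against 15.4 CPM (15.7-fold). *pre-rRNA:CR45845* was at 565 CPM against 124 CPM. The larger matrix as a whole held 1585 CPM of *pre-rRNA:CR45845*, so this level is not particular to Y-gene nuclei. For *ct*, a homeodomain gene called higher at 3.21-fold, 84.7% of the UMIs came from 1 nucleus, and the ratio was 0.595 among members at 5 or more times the pooled Y share.

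A neuronal gene and a gene of the nephrocyte list were also called higher. *brp*, the presynaptic active zone protein, was at 151 CPM in Y-gene nuclei against 10.8 CPM in other nuclei (14.0-fold, 10.9 to 18.0), with a UMI in 28 of 58 members. The other 7 genes of the neuronal list went both ways. *Rdl* (2.66-fold, 1.98 to 3.53) and *Syt1* (2.02-fold, 1.21 to 3.18) had lower limits above 1 and were not called, *nSyb* had 0 UMIs against 160 and was called lower, and *elav*, *para*, *cac* and *Syx1A* had ratios from 0.745 to 1.19. The median log2 ratio of the list was 0.13. The neuronal list summed to 1243 CPM in Y-gene nuclei, against 1046 CPM in other nuclei (1.19-fold, 1.11 to 1.27) and 8149 CPM in the 76 nuclei of the neuronal rule, which held 326 CPM of *brp*. *pros*, a homeobox gene in the nephrocyte list, was at 89.8 CPM against 14.8 CPM (6.06-fold, 4.50 to 8.05). The 9 nephrocyte genes summed to 1173 CPM against 1340 CPM (0.875-fold, 0.814 to 0.940). Besides *pros*, *Hand* had a lower limit above 1, at 46.4 CPM against 25.8 CPM (1.80-fold, 1.21 to 2.59), and was not called, and *Cubn* was at 34.4 CPM against 37.1 CPM. *sns*, a slit diaphragm protein, was at 27.0 CPM against 70.8 CPM and was not called, *kn* was at 4.49 CPM against 37.9 CPM and was called lower, and *Klf15* had 0 UMIs against 13.

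In the 58 nuclei 54 genes were called lower and 246 higher. Among the 15 nuclei at 30 or more times the pooled Y share the order was the reverse, with 239 of 1947 considered genes lower and 32 higher, of which 5 were among the 246. That setting considered fewer genes than the 6414 above, and its comparison nuclei included the remaining Y-gene nuclei. The median log2 ratio of these 15 nuclei to the other nuclei was -0.56 on the large autosomal arms. The part of these differences in the reversal was not tested. Of the 54 genes, the 10 with the smallest upper limit of the ratio were led by the midgut proteases *Jon65Aiv* (18.0 CPM in Y-gene nuclei against 172 CPM in other nuclei, 0.104-fold) and *Jon65Aiii* (31.4 CPM against 179 CPM) and by *Acp32CD*, a seminal fluid gene (15.0 CPM against 128 CPM, 0.117-fold). *betaTry*, a trypsin, had 0 UMIs in Y-gene nuclei against 266. Of 5 midgut enzyme genes 3 were called lower and 0 higher, against 0.842% of all genes called lower and 3.84% called higher. *peb*, a zinc-finger gene, was at 21.0 CPM against 77.6 CPM. These genes hold few counts in the members, from 0 UMIs of *betaTry* to 75 of *Acp54A1*.

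The Y-gene nuclei were not uniform. In 3 ranges of the fold over the pooled Y share, an arrangement chosen after seeing the data, 24 nuclei lay at 3 to under 10, 19 at 10 to under 30 and 15 at 30 or more. Their median depths were 12225.5, 9646 and 3519 UMIs. The 26 tMAC, tTAF, chromatin and dynein genes with a UMI summed to 337, 657 and 1962 CPM in these ranges, against 41.9 CPM in the other nuclei. The corresponding ratios were 8.04 (6.59 to 9.75), 15.7 (13.1 to 18.6) and 46.8 (38.3 to 56.8). Spermatid genes stood at 1387, 2795 and 7781 CPM, and *asRNA:CR44370* at 1571, 3362 and 10217 CPM. All of these genes lie outside the Y, and each sum was larger in each higher range of the Y-linked share. *brp* followed the same order, at 52.1, 211 and 507 CPM, against 10.8 CPM.

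Single members showed the same spread. The 26 genes took from 0 to 69.2 UMIs per 10000 with a median of 4.13, and the other nuclei had a median of 0 and reached 97.9. At least 3 of the 26 genes had a UMI in 32 of 58 Y-gene nuclei and in 25 of 5920 other nuclei. These shares were not matched for depth, at medians of 6677.5 and 1466.5 UMIs. None of the 26 genes had a UMI in 10 members, 7 of which lay in the lowest range, 2 in the middle and 1 in the highest. In 1 member of the highest range with 5934 UMIs and 92 Y-linked UMIs, no UMI of the 26 genes was found.

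**Figure D3:**
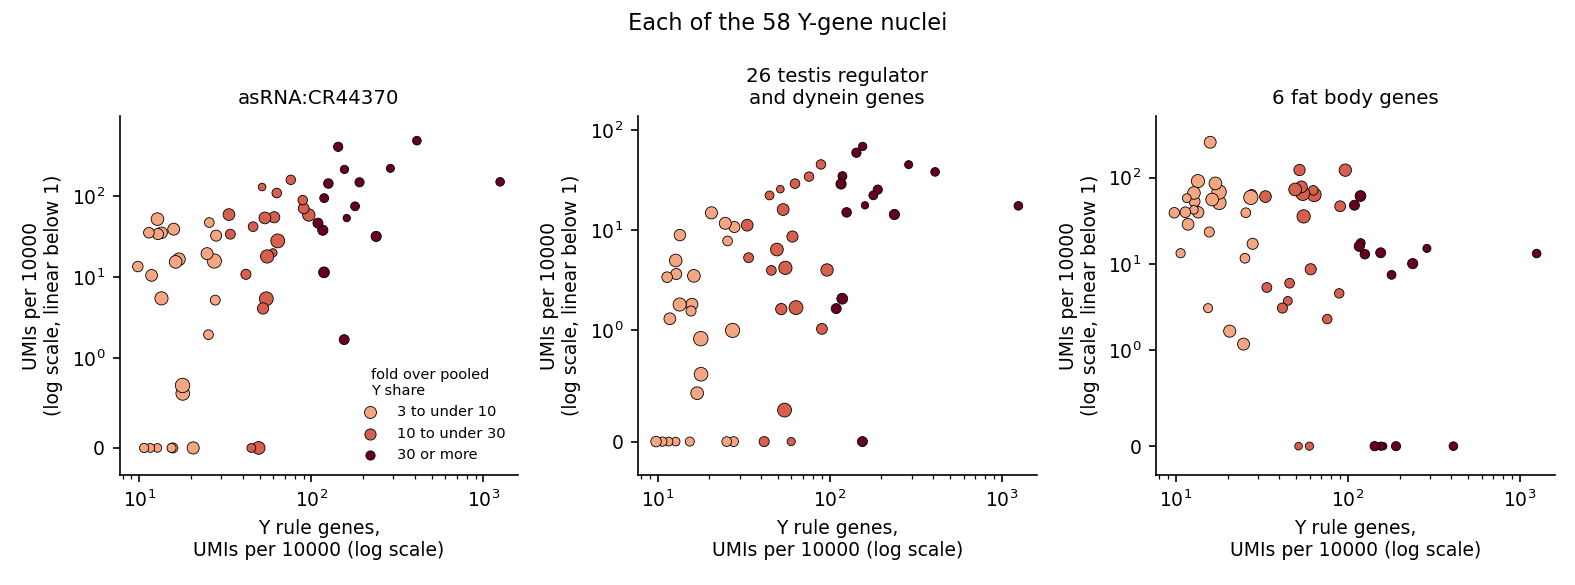
Each of the 58 Y-gene nuclei by its Y-linked share (log axis) and the UMIs per 10000 of *asRNA:CR44370*, of 26 testis regulator and dynein genes and of 6 fat body genes (log axes that are linear below 1). Color gives the range of fold over the pooled Y share and larger points are deeper nuclei; 8, 10 and 7 nuclei sit at 0 in the 3 panels.

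Several somatic lists ran in the opposite order, and their part in the values of the testis genes was not tested. The 6 fat body genes summed to 6025, 5925 and 2158 CPM in the 3 ranges from low to high Y share, against 7255 CPM in other nuclei. Per nucleus they took medians of 41.1, 35.6 and 13.0 UMIs per 10000, against 25.9 in the other nuclei, with ranges of 1.18 to 257, 0 to 123 and 0 to 61.3, against 0 to 876. The muscle list stood at 5250, 3097 and 1831 CPM against 4598 CPM, and the oenocyte list at 3235, 1952 and 1324 CPM against 3513 CPM. Every gene of the muscle and oenocyte lists and 5 of 6 fat body genes had UMIs in both groups, and *Lsp2*, a larval storage protein gene, had 1 UMI in Y-gene nuclei and 0 in other nuclei. The scale of these values moved too: over genes of the large autosomal arms with at least 5 expected UMIs in the range, the median log2 ratio was 0.00047, -0.04 and -0.56 in the 3 ranges. The dosage compensation RNA *lncRNA:roX1*, which coats the male X in the soma, was at 15976, 15030 and 9056 CPM in the 3 ranges, against 17963 CPM in other nuclei. It had a UMI in 55 of 58 members. Accessory gland genes did not run in this order, at 450, 844 and 1014 CPM against 708 CPM.

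Members also met rules for other classes. With the same form of rule (3 genes, 3 times the pooled share), 16 of 58 Y-gene nuclei qualified on a somatic list, 7 of them on accessory gland genes, 4 on muscle, 2 on oenocyte and 1 each on neuronal, fat body, hemocyte and gut genes. Among the 5920 other nuclei, 401 met the accessory gland rule, 340 the oenocyte rule and 76 the neuronal rule. In the larger matrix 2094 of 7890 nuclei met at least 1 somatic rule. These counts were not matched for depth. No doublet caller was run, and the share of members that hold 2 nuclei was not tested. After 13 members that met the accessory gland, neuron, oenocyte or muscle rule were left out, 45 nuclei remained, and the ratio of the 26 genes was 14.3, against 14.4 with them.

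**Figure D4:**
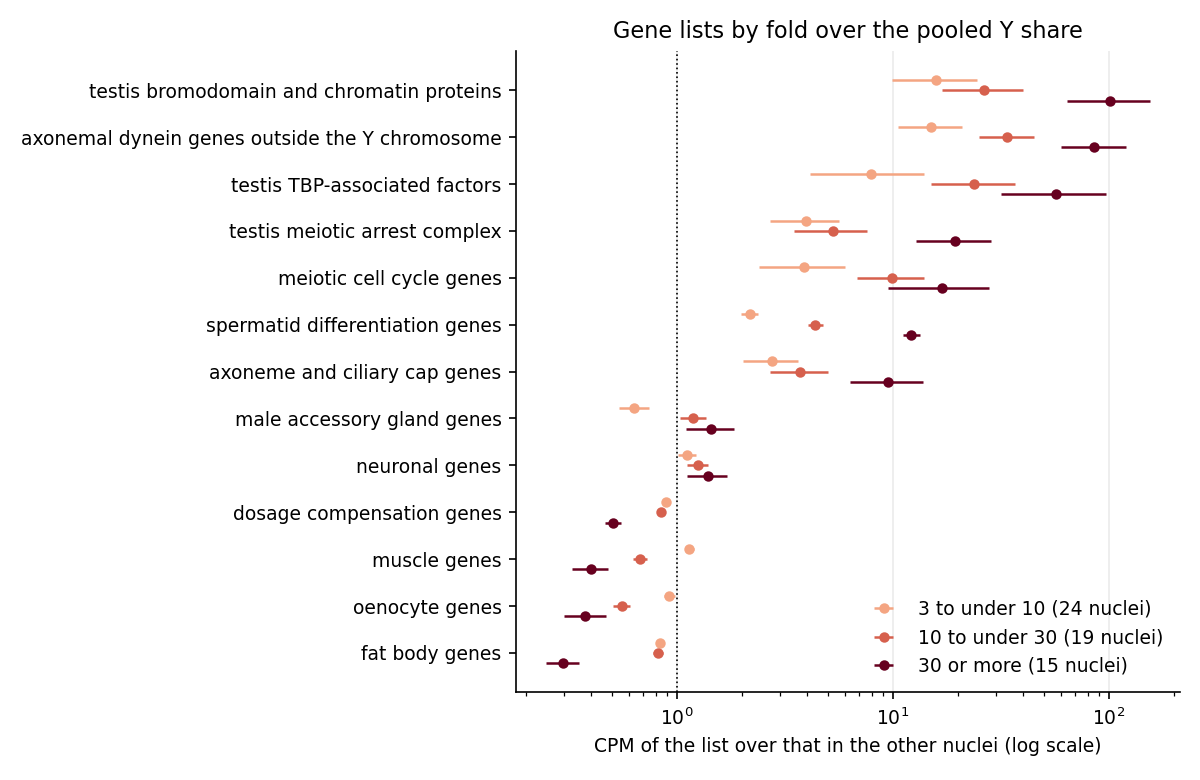
Ratio of the summed CPM of 13 gene lists to that in the 5920 other nuclei, for Y-gene nuclei at 3 to under 10, 10 to under 30 and 30 or more times the pooled Y share (24, 19 and 15 nuclei), with exact 95% intervals (counting error only) on a log axis. Testis lists lie further from 1 at higher Y share, and fat body, oenocyte, muscle and dosage compensation lists lie furthest below 1 in the highest range.

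The label was also read against genes outside the Y in the form of a rule. The rule applied to 12 spermatocyte genes outside the Y found 23 nuclei of the smaller matrix, of which 18 were Y-gene nuclei. That is 31.03% of the Y-gene nuclei and 78.3% of the nuclei found by the 12 genes. The 12 genes summed to 922 CPM in Y-gene nuclei against 449 CPM in other nuclei (2.05-fold, 1.89 to 2.23). *bol* and *fzo*, which were not called, held most of that sum, so the share condition rests largely on them. The chromatin list found 9 nuclei, all of them Y-gene nuclei, and the axoneme list found 25, of which 20 were. The tMAC list found 16 nuclei, of which 11 were Y-gene nuclei, and the dynein list found 9, of which 7 were. The Y rule and the list rules all ask for several genes in the same nucleus, which deep nuclei meet more easily. These overlaps were not matched for depth. The spermatid list found 410 nuclei, of which 29 were Y-gene nuclei (50.0% and 7.07% of each set). The pool of Y-gene nuclei carried transcripts of spermatocyte regulators, but 10 of its nuclei held none of the 26 genes, so the label was not applied to each nucleus.

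Nuclei found by the same rule in the larger matrix differed from these. *kl-3* had 2773 UMIs in the smaller matrix against 407 in the larger, while *kl-5* had 342 against 475. The 7 Y genes had 2007 UMIs in the larger matrix. By the pooled share of that matrix, 1.05 per 10000, 27 nuclei met the rule. They held 56.3 CPM (28.1 to 101) of the 26 regulator and dynein genes and 87.0 CPM of spermatid genes. At least 3 of the 26 genes were seen in 32 of 58 Y-gene nuclei of the smaller matrix, against 0 of these 27. The 27 nuclei also held 0 UMIs of *asRNA:CR44370*, which allows up to 18.9 CPM by the exact interval. *Pzl* was at 624 CPM in them against 220 CPM in that matrix as a whole.

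Testis copies of broadly expressed genes were read beside their counterparts, since many housekeeping complexes have a testis-specific subunit. Both genes had UMIs in 31 of 32 pairs. The ratio of the testis copy was the larger in 30, with its lower limit above 1 in 26 and the intervals apart in 24. The median ratio of Y-gene to other nuclei was 9.39 for testis copies and 1.004 for counterparts. *betaTub85D* had a ratio of 9.68 beside 0.787 for *betaTub56D*, the general beta-tubulin. *Cyt-c-d*, the testis cytochrome c, had 6.20 beside 0.990 for *Cyt-c-p*. *eIF4E3*, a cap-binding protein of spermatocytes, had 9.39 beside 1.40 for *eIF4E1*, and the mitochondrial aconitase *mAcon2* had 46.5 beside 0.842 for *mAcon1*. Testis proteasome subunits had ratios from 5.23 for *Prosbeta5R1* to 41.8 for *Prosalpha3T*, and their counterparts from 0.789 to 1.73, but for *Prosalpha4T1* and *Prosbeta2R1*, with 3 UMIs each in Y-gene nuclei, the interval overlapped that of the counterpart. *Hsp60B* had 6.58, but its counterpart *Hsp60A* also had 2.46 (1.78 to 3.34). *eIF4G2* (1.12 beside 1.004 for *eIF4G1*), *fzo* (1.01 beside 0.922 for *Marf*), *mia* (1.54 beside 0.908 for *Taf6*), *Ran-like* (3.02 beside 1.12 for *Ran*) and *Fer3HCH* (0.817 on 1 UMI in Y-gene nuclei, beside 1.04 for *Fer1HCH*) had intervals that overlapped those of their counterparts and held 1. Most testis copies rest on fewer than 20 UMIs in the members.

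**Figure D5:**
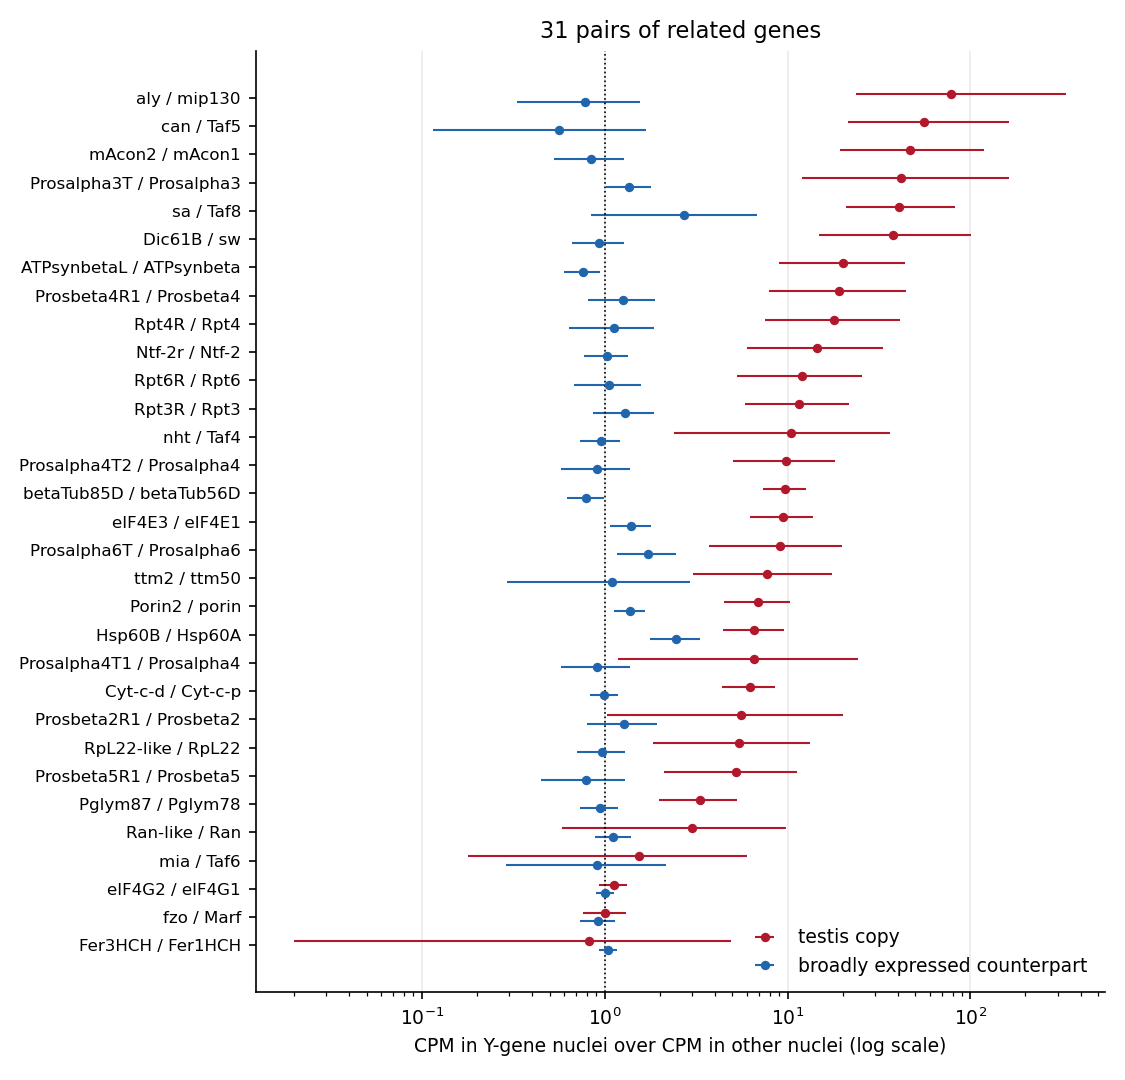
Ratio of CPM in the 58 Y-gene nuclei to CPM in the 5920 other nuclei for 31 pairs of a testis copy (red) and its broadly expressed counterpart (blue), with exact 95% intervals (counting error only) on a log axis. The testis copies have a median ratio of 9.39 and the counterparts 1.004.

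The X chromosome held a smaller share of the transcripts in Y-gene nuclei. X-linked genes took 16.3% (16.2 to 16.4) of UMIs in Y-gene nuclei against 17.2% (17.1 to 17.2) in other nuclei. In the nuclei of the accessory gland and neuronal rules they took 16.8% and 18.0%. Without the 2 *roX* RNAs the share was 15.0% in Y-gene nuclei and 15.6% in other nuclei, and it was 14.1% in the 15 Y-gene nuclei of the highest range. Per gene, that range showed no such gap, with a median log2 ratio of -0.55 on the X and -0.56 on the large autosomal arms. Chromosome 4 took 1.96% of UMIs in Y-gene nuclei (1.12% in the highest range) against 2.20% in other nuclei. Its share was 1.78% in the nuclei of the accessory gland rule and 2.19% in those of the neuronal rule. A share below that of the other nuclei was therefore not particular to Y-gene nuclei. Of 1072 X-linked genes 20 were called higher (1.87%), and of 5226 genes on the 4 large autosomal arms 222 were (4.25%). Over all Y-gene nuclei the median log2 ratio was -0.06 on the X and 0.04 on those arms, and no gene of 68 on chromosome 4 was called higher or lower. The leading X-linked genes were *CG15040* (66.3-fold), *lncRNA:CR43835* (49.0-fold) and *oc* (68.4-fold).

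Y-gene nuclei held more kinds of transcripts at a fixed depth. At 500 UMIs per nucleus, a median of 381 genes (308 to 438) was seen in Y-gene nuclei, against 337 (136 to 436) in other nuclei. The groups overlapped. Nuclei of the accessory gland and neuronal rules had medians of 343 and 353.5. Over the 3 ranges of Y share, low to high, the median was 375.5, 386 and 399 genes.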

How the data were processed

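Reads were counted per gene by the authors with cellranger count, and the authors deposited raw UMI counts as 2 tables of genes by nuclei. Each table is taken here as 1 library. Software version, genome build, annotation and strand were not given in the sources used here. Deposited barcodes all hold at least 500 UMIs, with 19107558 UMIs in 7890 nuclei of the larger matrix (median 1315) and 18130609 in 5978 of the smaller (median 1481). Symbols and chromosome arms were matched by FlyBase identifier to Ensembl 115, which left 68 of 15423 genes without either. Of 201 listed genes 10 were not matched. No sequence is shown. No doublet caller was run.

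Counts were summed over nuclei with Python 3.11.15, numpy 2.4.6, pandas 2.3.3 and scipy 1.17.1. Intervals are exact (Poisson for sums, conditional binomial for ratios, Clopper-Pearson for shares) at 95%. Nuclei of 1 library are no replicates, so no p-value was computed. The call rule was tested on simulated data. Named genes are the listed genes and pairs, the 20 genes with the largest lower limit of the ratio (at least 20 UMIs in members, in at least 10% of them, no nucleus holding more UMIs of it than the rest together), the 15 highest by CPM among those called higher and the 10 with the smallest upper limit among those called lower. The members and lists were chosen with earlier results of these data known. Alternatives changed the rule, filters, comparison nuclei and weights.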

Additional observations from a re-analysis of the deposited data

How the results depend on the processing

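No paired analysis was possible because there is 1 library and no test. The 58 nuclei became 126 with 2 of the 7 genes, and 34 and 15 at 10 and 30 times the pooled share. The 246 higher genes became 584 and the 54 lower 234 when each nucleus weighed equally, with no interval condition. The higher genes became 142 of 4534 considered at 10 times the pooled share and, at 30 times, 32 of 1947 considered against 239 lower. In both settings the comparison nuclei included the Y-gene nuclei left out. Without an expected count 1682 were higher, and with at least 20 expected 31 were higher and 14 lower, since fewer genes were then considered. The settings at 10 and 30 times and those on the expected count were chosen after seeing the data. The X-linked share of 16.3% was 16.4% with 2 genes or 2 times the share, 16.0% at 5 times, 15.9% without *kl-3*, 15.7% with equal weights, 16.5% without members of other rules, 15.8% at 10 times and 14.9% at 30 times. *ct* fell below 1 at 5 times the share (0.595), without *kl-3* (0.590) and at 10 times (0.597). Over all settings the ratio of *asRNA:CR44370* ran from 53.4 to 224, that of the 26 regulator and dynein genes from 12.5 to 35.0 and that of *brp* from 11.3 to 35.5. Of 1333 further values 1186 stayed within the counting interval or, for counts of genes, within 1.5 times. Part of this agreement was fixed in advance, so the total does not measure robustness. Asking for at least 5 or at least 50 UMIs left the same 6414 genes, with 246 higher and 54 lower. The condition on the expected count was already stricter than either. Many gene lists also had no called gene, which left their counts little room to move. With low counts, single regulators cannot be ranked, and the larger matrix cannot serve as a replicate.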

Other observations

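The ejaculatory duct and bulb genes with a UMI summed to 370 CPM in Y-gene nuclei and 245 CPM in other nuclei, a ratio of 1.51 (1.32 to 1.72), and none was called. *Dup99B*, a seminal peptide gene of the ejaculatory duct, had 197 UMIs in Y-gene nuclei and 3316 in other nuclei. *blanks*, an RNA-binding protein of the male germline, had 30 UMIs in Y-gene nuclei and 67 in other nuclei, a ratio of 11.7.

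Y-linked transcripts also lay outside the 58 nuclei. The Y-gene nuclei held 3323 UMIs of the 7 genes and the other nuclei 2588. A total of 77 nuclei had 3 or more of the genes at too low a share, and 25 of the 5920 other nuclei had a UMI of at least 3 of the 26 regulator and dynein genes.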
